A study of Homo sapiens with 6 samples.

Results

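Alternate contigs are the pieces of the human reference assembly that carry a second version of a stretch already present on a chromosome, and 2517 of the 86200 H3K27ac peaks of this series lay on them. Every peak of the H3K27ac lists whose sequence name ended in _alt was taken, and the peaks were grouped by parent chromosome and contig. They numbered 480 of 16697 peaks in Jurkat replicate 1 (2.87%, exact Clopper-Pearson 95% interval 2.63 to 3.14), 933 of 33141 in Jurkat replicate 2 (2.82%, 2.64 to 2.999) and 1104 of 36362 in 6T-CEM (3.04%, 2.86 to 3.22). The intervals cover counting error only, and a share of close to 3% was therefore found in every library. Jurkat and 6T-CEM are established human lines grown from T-cell leukaemias, and the series held 6 samples: Jurkat H3K27ac (2 libraries), 6T-CEM H3K27ac (1 library) and 3 IgG samples, which were not analysed here. The title names GNE-987, an inhibitor of BET bromodomain proteins, and the description mentions 10 nM for 24 h, but the labels of the samples are silent on treatment, and each library may come from treated or untreated cells. No test between the lines was possible, because 6T-CEM had 1 H3K27ac library, and the lists hold no read counts, so their depth is unknown. Jurkat replicate 1 had the shortest list, and counts with every list held to that length are given for the main differences.

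H3K27ac, acetylation of lysine 27 of histone H3, marks active promoters and enhancers. The reference assembly adds alternate contigs where people differ too much for a single sequence, above all at immune loci: the major histocompatibility complex (MHC) of chromosome 6, the immunoglobulin heavy chain locus (IGH) of chromosome 14, the T-cell receptor beta locus (TRB) of chromosome 7 and the leukocyte receptor complex of chromosome 19. A read from such a locus can match a contig and its parent chromosome equally well, and the aligner then has to choose between them, so a contig peak is a peak at that locus and not a call of the haplotype that a cell line carries. How reads were assigned was not tested.

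No gene annotation of the contigs was used here, so contigs were tied to their parent chromosome by the spacing of the peaks. Where a series of peaks on a contig lay at the same distances as a series of peaks of the same library on the chromosome, the contig was placed there. This placed 24 of 131 contigs with a peak, which held 1710 of the 2517 contig peaks (67.9%). Of these peaks, 969 had a matching chromosome peak in the same library, 608 lay within 25 kb of such a peak and took their position from it, and 133 stayed without a position. Genes named below are RefSeq genes (GRCh38.p14, the build the submitters call hg38) on or within 1 kb of the chromosomal position so obtained, which is an inference from spacing and not from sequence.

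The promoters below are those of protein-coding genes whose promoter window was covered in every library by the peaks of at least 3 contigs, at least 1 of them matched to a chromosome peak in each library, limited to the 4 MHC genes with most contigs. BRD2 was added because its contig peaks had the largest ratio to their matching chromosome peak in Jurkat replicate 2, a choice made after the values were seen. Each sequence is the chromosomal RefSeq window of 300 bases on the gene's strand, 5′ to 3′, and the contigs carry their own versions, which are not printed. Capitals mark 3 sets of letters on either strand: CCAAT (the CCAAT box), CCGGAA (the core of ETS factor sites) and TGTGGT (the core of RUNX factor sites). They occur in 34.6%, 17.2% and 13.1% of the 34796 distinct promoter windows of the RefSeq table. Matches were found for CCAAT in PPP1R10 (2) and LAIR1 (1) and for CCGGAA in DDX39B (2), and a match is a description of the letters only.
PPP1R10 (a regulatory subunit of protein phosphatase 1; chr6:30617194-30617493, minus strand): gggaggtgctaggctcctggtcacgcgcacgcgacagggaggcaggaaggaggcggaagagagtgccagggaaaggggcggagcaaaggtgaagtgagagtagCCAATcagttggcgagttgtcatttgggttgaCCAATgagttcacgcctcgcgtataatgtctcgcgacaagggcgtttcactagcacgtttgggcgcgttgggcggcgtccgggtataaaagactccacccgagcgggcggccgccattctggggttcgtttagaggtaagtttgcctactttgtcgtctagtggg
MRPS18B (a protein of the mitochondrial ribosome; chr6:30617590-30617889, plus strand): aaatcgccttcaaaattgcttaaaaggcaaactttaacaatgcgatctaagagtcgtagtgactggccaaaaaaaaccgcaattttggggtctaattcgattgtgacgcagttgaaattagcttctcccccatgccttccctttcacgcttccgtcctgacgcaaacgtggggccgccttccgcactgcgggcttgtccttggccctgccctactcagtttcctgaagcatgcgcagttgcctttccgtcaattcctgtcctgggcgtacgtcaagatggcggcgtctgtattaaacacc
GPSM3 (a modulator of G-protein signalling in blood cells; chr6:32192594-32192893, minus strand): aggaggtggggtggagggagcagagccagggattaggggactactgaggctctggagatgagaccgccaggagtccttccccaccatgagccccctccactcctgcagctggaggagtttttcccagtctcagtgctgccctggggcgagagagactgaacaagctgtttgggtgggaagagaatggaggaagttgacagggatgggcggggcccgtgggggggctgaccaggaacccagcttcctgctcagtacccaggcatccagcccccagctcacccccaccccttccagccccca
DDX39B (an RNA helicase of splicing and mRNA export; chr6:31541954-31542253, minus strand): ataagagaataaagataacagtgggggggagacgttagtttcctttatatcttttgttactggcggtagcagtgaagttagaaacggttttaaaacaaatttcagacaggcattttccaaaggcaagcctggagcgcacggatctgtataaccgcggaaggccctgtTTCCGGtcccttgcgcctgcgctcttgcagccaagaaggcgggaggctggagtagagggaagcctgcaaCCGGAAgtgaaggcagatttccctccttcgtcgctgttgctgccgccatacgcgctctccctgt
BRD2 (a BET bromodomain protein; chr6:32970680-32970979, plus strand): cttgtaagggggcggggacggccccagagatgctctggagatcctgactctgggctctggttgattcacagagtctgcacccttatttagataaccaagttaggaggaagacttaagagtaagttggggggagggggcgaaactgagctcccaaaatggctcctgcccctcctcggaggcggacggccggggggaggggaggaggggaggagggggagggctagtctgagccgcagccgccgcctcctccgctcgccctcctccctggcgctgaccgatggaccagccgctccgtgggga
LAIR1 (an inhibitory collagen receptor of immune cells; chr19:54364882-54365181, minus strand): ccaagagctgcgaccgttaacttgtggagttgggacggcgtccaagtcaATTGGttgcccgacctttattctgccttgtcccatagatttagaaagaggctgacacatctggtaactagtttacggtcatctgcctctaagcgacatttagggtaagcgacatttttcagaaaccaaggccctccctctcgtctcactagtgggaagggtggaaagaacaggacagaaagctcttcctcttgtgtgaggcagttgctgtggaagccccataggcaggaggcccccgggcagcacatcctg
SMDT1 (a subunit of the mitochondrial calcium uniporter; chr22:42079450-42079749, plus strand): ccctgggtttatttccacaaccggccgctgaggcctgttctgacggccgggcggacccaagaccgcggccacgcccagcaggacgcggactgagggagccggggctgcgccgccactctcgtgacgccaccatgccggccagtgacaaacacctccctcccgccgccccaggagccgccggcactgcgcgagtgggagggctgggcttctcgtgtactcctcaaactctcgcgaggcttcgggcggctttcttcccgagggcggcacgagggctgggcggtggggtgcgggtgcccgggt

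Contig peaks were spread very unevenly. Of the 131 contigs with a peak, 62 held 1 to 4 peaks, while the 12 fullest held 1350 peaks (53.6%), which was 58.1% of the contig peaks of Jurkat replicate 1 and 50.9% of those of Jurkat replicate 2. Contigs with a peak numbered 85 in Jurkat replicate 1, 97 in Jurkat replicate 2 and 118 in 6T-CEM, and 68 contigs, with 2319 peaks, had peaks in every library. By parent chromosome, chromosome 6 led with 155, 227 and 255 peaks on 10 contigs. Such triples give the Jurkat libraries in replicate order and then 6T-CEM, here and from here on. Chromosome 17 followed with 75, 168 and 148 peaks on 10 contigs, and chromosome 14 held 47, 82 and 190 peaks on only 2 contigs. Chromosome 19 has the most contigs with a peak, 23, but they carried only 24, 44 and 66 peaks.

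The fullest contig was chr14 KI270846v1, the IGH contig, with 39, 55 and 150 peaks. The 7 MHC contigs (chr6 GL000250v2 to GL000256v2) held 148, 223 and 249 peaks in all, from 10, 12 and 17 on GL000250v2 to 23, 38 and 48 on GL000251v2. The others of the fullest 12 were chr17 KI270857v1 with 30, 51 and 63 peaks, chr16 KI270853v1 with 22, 53 and 45, chr15 KI270905v1 with 14, 41 and 44, chr17 KI270908v1 with 14, 36 and 31, and chr7 KI270803v1, the TRB contig, with 22, 28 and 31. The remaining MHC contigs had 25, 37 and 43 peaks (GL000255v2), 26, 34 and 38 (GL000254v2), 24, 34 and 40 (GL000256v2), 23, 35 and 29 (GL000252v2) and 17, 33 and 34 (GL000253v2).

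**Figure D1:**
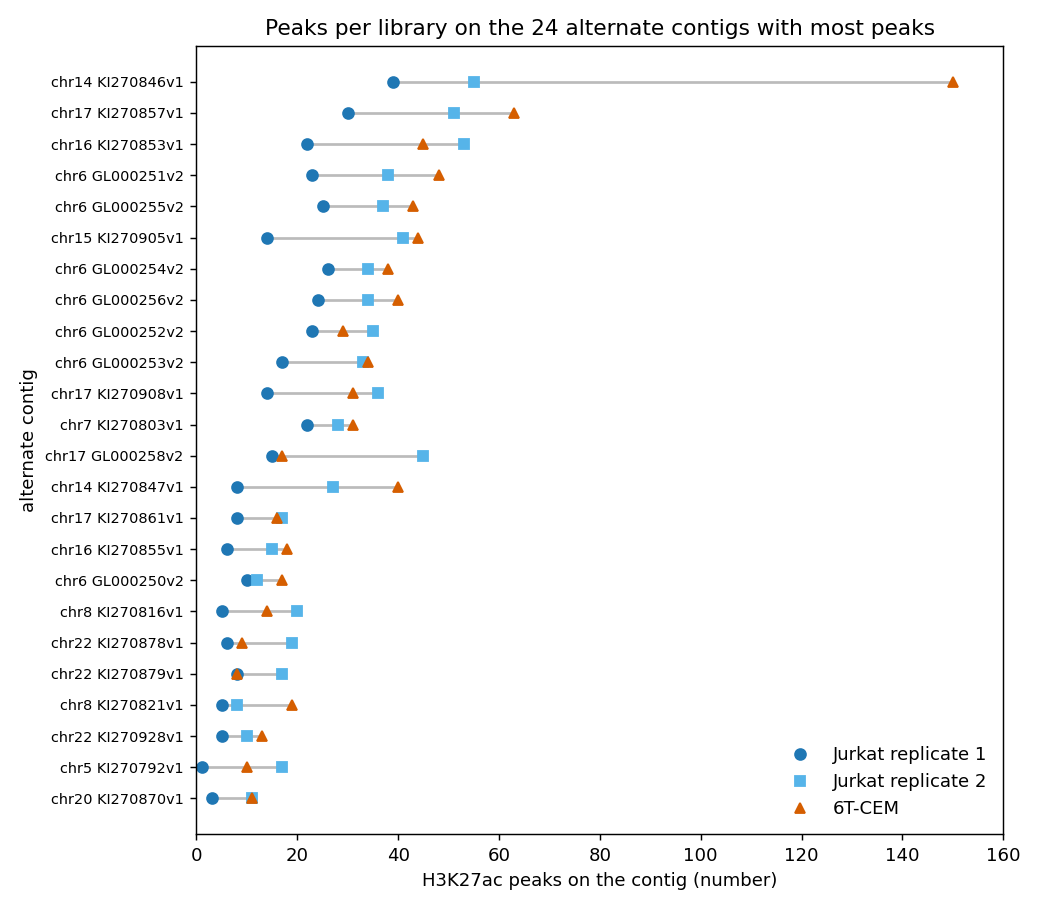
Number of H3K27ac peaks (horizontal axis) on each of the 24 alternate contigs with most peaks (vertical axis); circles are Jurkat replicate 1, squares Jurkat replicate 2 and triangles 6T-CEM, and grey lines join the lowest and highest library. The 6T-CEM count of 150 on chr14 KI270846v1 stands far to the right of every other point, and Jurkat replicate 1 is lowest, alone or tied, on each of these contigs.

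On 62 of 131 contigs (47.3%) 6T-CEM had more peaks than either Jurkat library, and on 4 (3.05%) it had fewer. With each list held to its 16697 peaks of highest −log10 q, this became 25 contigs with more and 29 with fewer among 108, so the general surplus of 6T-CEM went with its longer list. The IGH contig kept its surplus, with 39, 30 and 92 peaks at equal list length. Smaller contigs with lopsided counts, picked after their values were seen, were chr20 KI270869v1 with 0, 2 and 15 peaks, chr2 KI270776v1 with 1, 5 and 19, chr15 KI270852v1 with 0, 1 and 8, and chr1 KI270763v1 with 1, 0 and 8, all fullest in 6T-CEM. At equal list length these fell to 0, 1 and 4, to 1, 1 and 7, to 0, 1 and 4 and to 1, 0 and 3. Jurkat libraries were fuller on chr15 GL383555v2 (0, 10 and 1) and chr1 GL383520v2 (8, 1 and 2), though in each case in only 1 of the Jurkat libraries. At equal list length they had 0, 1 and 0 and 8, 1 and 1, so the difference on the former was lost.

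Contig peaks had higher median folds than chromosome peaks of the same list, fold being the authors' enrichment over the caller's background. The median fold was 5.58 on contigs and 5.17 on chromosomes 1 to 22 and X in Jurkat replicate 1, 5.19 and 4.33 in Jurkat replicate 2, and 5.54 and 4.65 in 6T-CEM. The medians differed by 0.41, 0.86 and 0.88, and at equal list length the difference in 6T-CEM was 1.47. The median −log10 q went the other way, at 5.77 on contigs and 6.65 on chromosomes, 6.90 and 7.04, and 7.79 and 8.43. The interquartile ranges of the contig folds were 4.80 to 6.69, 4.21 to 6.46 and 4.35 to 7.27. Contig peaks were narrower at the median, 610.5 bp against 762 bp, 571 bp against 583 bp and 624.5 bp against 647 bp, and covered 374, 727 and 973 kb.

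Agreement between the Jurkat libraries was as close on contigs as on chromosomes. Of the contig peaks of Jurkat replicate 1, 341 of 480 (71.0%, 66.8 to 75.1) shared at least 1 base with a peak of replicate 2, beside 71.6% of 16159 chromosome peaks. For agreement with 6T-CEM the Jurkat libraries differed. Of the Jurkat replicate 1 contig peaks, 300 of 480 (62.5%, 58.0 to 66.8) overlapped a 6T-CEM peak, beside 72.0% on chromosomes. Of those of replicate 2, 512 of 933 (54.9%, 51.6 to 58.1) did, beside 57.1%, which lies within the interval. Merging overlapping peaks gave 1569 contig regions, of which 224 (14.3%, 12.6 to 16.1) had peaks in all 3 libraries, beside 17.4% of the chromosome regions. Regions with peaks in both Jurkat libraries but not in 6T-CEM numbered 83 (5.29%, beside 3.20% on chromosomes), and 572 (36.5%, beside 32.2%) were in 6T-CEM alone. Jurkat replicate 1 shared 43 regions with 6T-CEM only (2.74%, beside 3.32%) and had 90 to itself (5.74%, beside 5.39%). Jurkat replicate 2 shared 222 with 6T-CEM only (14.1%, beside 14.5%) and had 335 to itself (21.4%, beside 23.9%). Of the 307 contig regions marked in both Jurkat libraries, 224 (73.0%, 67.6 to 77.9) held a 6T-CEM peak, beside 84.5% of 10206 chromosome regions. MHC contigs repeat the same genes, so these regions are not independent of each other, and without them the share was 73.1% of 208.

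The IGH contig held the largest surplus in peak count of the 6T-CEM library over both Jurkat libraries. Its peaks were placed at chr14:105710628-106849243, the region of the variable (V), diversity (D) and joining (J) segments that B cells recombine to build antibody heavy chains and that T-lineage cells do not express as protein. Over the V segments, Jurkat replicate 1 had 37 contig peaks covering 30.8 kb, Jurkat replicate 2 had 37 covering 21.2 kb and 6T-CEM had 139 covering 130.1 kb of 937.3 kb. 6T-CEM was the highest in both measures, and Jurkat replicate 2 covered fewer bases than replicate 1. A contig peak lay on or within 1 kb of 16, 16 and 40 of the 48 V segments. At equal list length the V region still had 37, 21 and 88 peaks, covering 30.8, 14.96 and 103.9 kb. The chromosomal copy had 39, 36 and 140 peaks and 16, 12 and 41 V segments. Contig peaks were placed by matching that copy, and reads can fall on either, so it is not a separate observation. V segments resemble each other closely, so a read of 1 segment may be counted at another.

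The D segments showed another order. Jurkat replicate 2 had 13 contig peaks there covering 23.3 kb of 55.97 kb and touching 23 of 27 D segments, 6T-CEM had 8 peaks covering 8.31 kb and touching 13, and Jurkat replicate 1 had 2 peaks covering 0.814 kb and touching 2. Jurkat replicate 2 was the highest and replicate 1 the lowest, with 6T-CEM between them. The chromosomal copy had the same order, with 24.3, 7.74 and 2.15 kb in Jurkat replicate 2, 6T-CEM and Jurkat replicate 1. Here too that copy is not a separate observation. The widest contig peak of Jurkat replicate 2, 6095 bp at contig positions 356110 to 362204 with a fold of 5.05, lay over IGHD2-21, IGHD1-20, IGHD6-19, IGHD5-18 and IGHD4-17. None of the 6 J segments or 9 constant regions had a contig peak in any library. The constant regions with their 1 kb margins begin at chr14:105585937, however, and the placed stretch only at chr14:105710628, so part of them could not be given one. On the chromosome, 1 constant region had a peak in 6T-CEM.

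Of the 162 regions of the IGH contig, 104 (64.2%) were in 6T-CEM alone, 24 in all 3 libraries and 0 in the Jurkat libraries only. The strongest 6T-CEM peak of this contig, at positions 529103 to 531031, had a fold of 27.3 and lay at IGHV3-7, a V segment. Shared regions were found at IGHV3-13, with folds of 8.89, 7.53 and 17.6, and at 2 places without an annotated segment, where the folds were 10.2, 8.74 and 9.54 and 11.02, 13.5 and 18.3. At IGHV3-53 the 6T-CEM peak had a fold of 14.2 on the contig and 22.4 on the chromosome. Among marker genes read on the chromosomes, T-cell genes had a peak in 5, 6 and 6 of 6 cases. Myeloid markers had a peak in 0, 1 and 1 of 3 cases (CSF1R) and erythroid markers in 0 of 2.

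**Figure D2:**
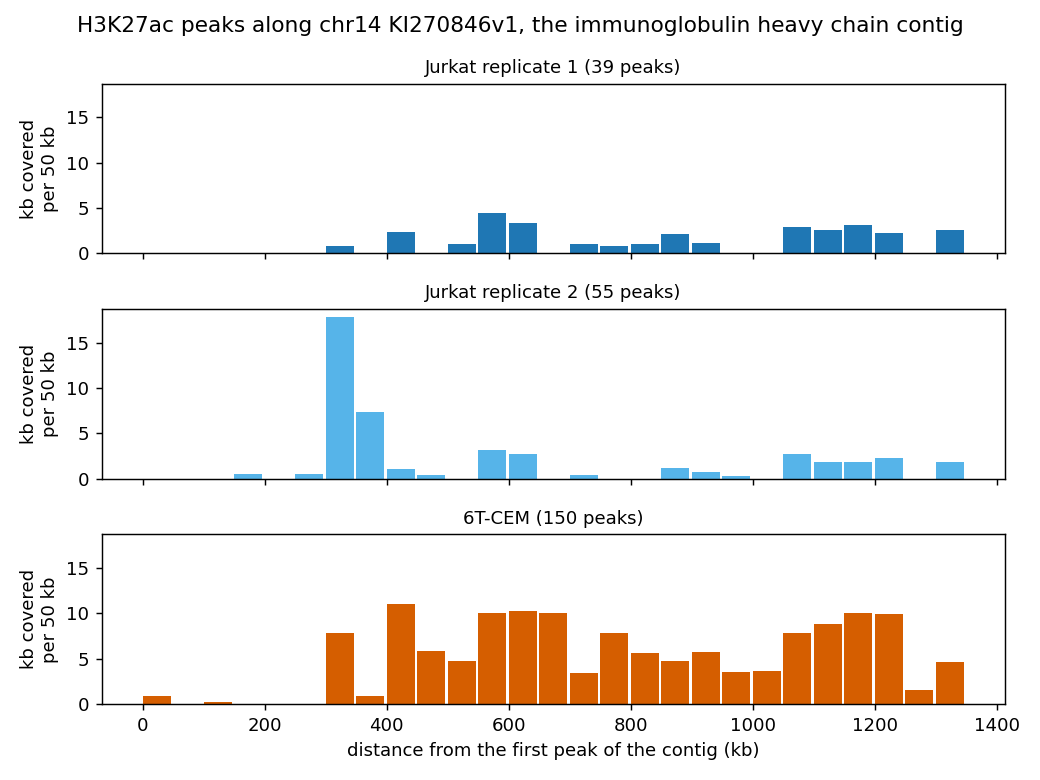
Kilobases covered by H3K27ac peaks in windows of 50 kb (vertical axis) against the distance from the first peak of chr14 KI270846v1 in kb (horizontal axis), 1 panel per library. 6T-CEM exceeded 5 kb in 13 windows, whereas Jurkat replicate 1 never did and Jurkat replicate 2 did in 2, with its highest window of 17.8 kb at 300 to 350 kb, over the D segments.

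The TRB contig, chr7 KI270803v1, carried the contig peak of highest −log10 q in every library. Its peaks were placed at chr7:142210194-142866738, and TRB encodes the beta chain of the T-cell receptor in 2 clusters of D, J and constant (C) segments. At the first J cluster, the contig peak had a fold of 17.9 in Jurkat replicate 1 (3459 bp), 17.7 in Jurkat replicate 2 (3433 bp) and 48.3 in 6T-CEM (1905 bp). The 6T-CEM peak had a −log10 q of 157, the highest of its entire list. The Jurkat peaks were wider and of lower fold than the 6T-CEM peak. Over the second D and J cluster the folds were 12.7, 13.8 and 21.9, and the −log10 q of the Jurkat replicate 2 peak, 102, ranked 6 in its list. At TRBC2, the second constant region, the highest folds were 15.2, 7.77 and 21.0.

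All 13 J segments of TRB lay at a contig peak in both Jurkat libraries and 11 did in 6T-CEM, whereas V segments did in 7, 11 and 8 of 44 cases. The C segments TRBC1 and TRBC2 had contig peaks in every library. In 6T-CEM, contig peaks of this locus tended to have higher folds than their chromosome matches, with a median log2 ratio of 0.42 and 12 of 15 higher, while the medians in Jurkat were −0.03 over 8 peaks and 0.14 over 16. Single peaks went both ways. At the first J cluster the folds on contig and matching chromosome peak were 48.3 and 25.4 in 6T-CEM and 17.7 and 7.15 in Jurkat replicate 2, while a 6T-CEM peak beyond TRBC2 had 16.6 and 24.7.

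The MHC contigs were placed at chr6:30061397-33453363, and the same genes recurred from contig to contig. Chromosome 6 itself had 34, 54 and 50 peaks in this window, and 23, 46 and 44 of them had a matching peak on at least 1 contig, some on 6. Of the 348 MHC regions 72 (20.7%) had peaks in all 3 libraries, 107 (30.7%) were in 6T-CEM alone and 27 in both Jurkat libraries only. PPP1R18, which encodes a phosphatase 1-binding actin regulator, had a peak on all 7 contigs in every library. CLIC1, a chloride intracellular channel protein, PPP1R10, MRPS18B, GPSM3 and NOTCH4, a Notch receptor, had one on 6 contigs in every library. PPP1R10 and MRPS18B lie side by side, and GPSM3 and NOTCH4 overlap, so the same peak can count at both genes of a pair. At equal list length CLIC1 and GPSM3 had 6 in every library, but PPP1R10 had 6, 6 and 2, MRPS18B 6, 4 and 2, NOTCH4 6, 3 and 4 and PPP1R18 7, 6 and 6. VARS1, the valyl-tRNA synthetase, had peaks on 5, 5 and 6 contigs and DDX39B on 4, 4 and 6, or 5, 5 and 4 and 4, 4 and 4 at equal list length. Contig peaks at CLIC1 numbered 19, 19 and 17, with folds up to 8.12, 11.4 and 13.7, beside 1, 3 and 2 peaks on chromosome 6 with folds up to 7.33, 9.32 and 8.12.

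**Figure D3:**
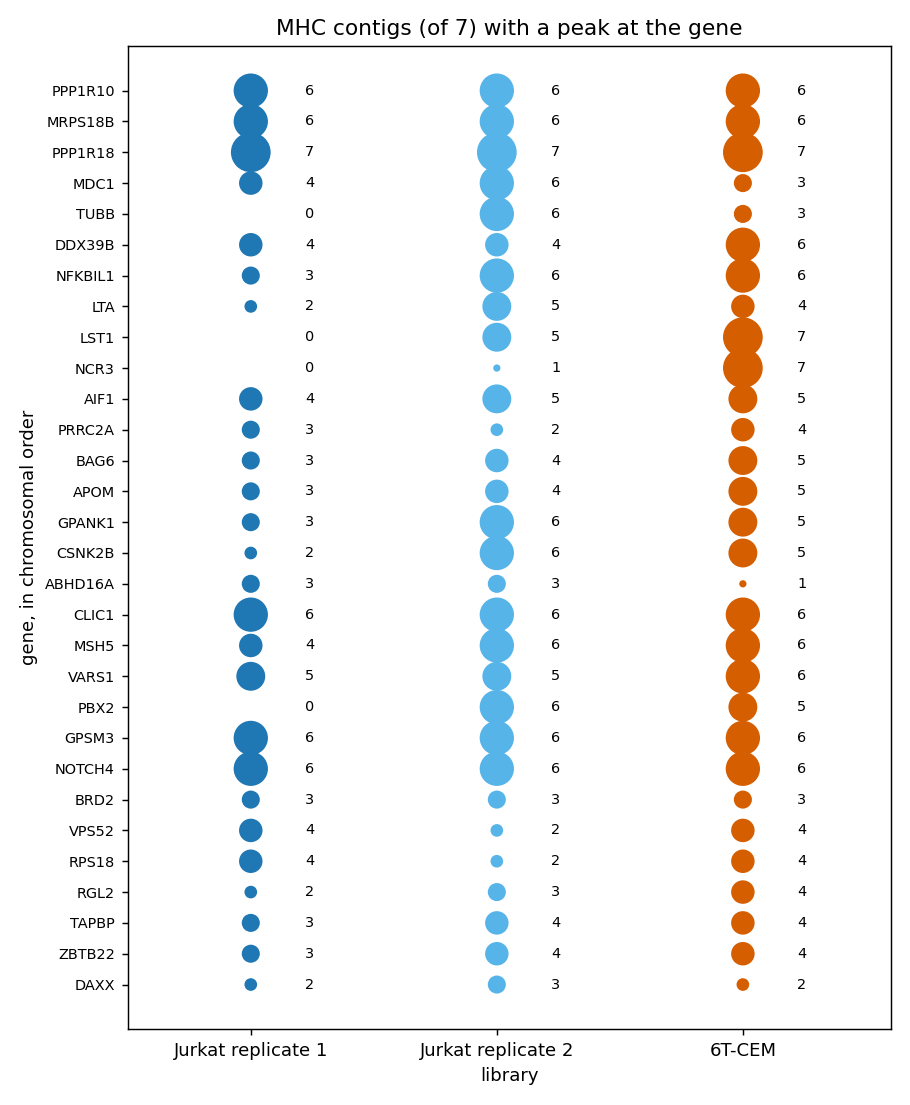
Number of MHC contigs, of 7, with a peak at each of 30 protein-coding genes (vertical axis, in chromosomal order) in each library (horizontal axis); circle area grows with the square of the printed number. NCR3 and LST1, which overlap, have 7 contigs in 6T-CEM and 0 in Jurkat replicate 1, while PPP1R18 has 7 in every library. A 0 can also mean that the stretch of a contig was not placed.

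In and beside the tumour necrosis factor cluster of the MHC, 4 genes, picked after their values were seen, had most of their contig peaks in 6T-CEM. NCR3, which encodes the natural cytotoxicity receptor NKp30, had 0, 1 and 19 contig peaks on 0, 1 and 7 contigs, and the 6T-CEM folds ran from 5.14 to 16.2. LTB, which encodes lymphotoxin beta, had 0, 0 and 8 peaks on 0, 0 and 6 contigs with folds up to 11.1, and TNF, the cytokine gene, had 0, 0 and 8 on 0, 0 and 6 with folds up to 8.98. LST1, a leukocyte transcript next to LTB, had peaks on 0, 5 and 7 contigs. At equal list length NCR3 kept 0, 0 and 7 contigs, LTB 0, 0 and 6, LST1 0, 3 and 6 and TNF 0, 0 and 2. On chromosome 6 NCR3 had 0, 0 and 2 peaks, with a highest fold of 16.7 in 6T-CEM, and LTB and TNF had 0, 0 and 1 each. The 6T-CEM library was above both Jurkat libraries at all 4 genes, on the contigs and, for NCR3, LTB and TNF, on the chromosome. NCR3 and LST1 overlap, so the same peak can count at both. Their highest 6T-CEM folds were the same, 16.2 on the contigs and 16.7 on the chromosome. Contig positions come from matching chromosome peaks, so contig and chromosome are not separate observations. LTA, which encodes lymphotoxin alpha, had peaks on 2, 5 and 4 contigs over the gene and on 0, 1 and 4 over its promoter windows. NFKBIL1, the next gene, had them on 3, 6 and 6 contigs, and on 3, 5 and 1 at equal list length. Farther along, MPIG6B, a platelet receptor gene, had 0, 0 and 9 peaks on 0, 0 and 6 contigs, and on 0, 0 and 4 at equal list length. DDAH2 had 0, 0 and 7 peaks on 0, 0 and 6 contigs, none of which remained at equal list length.

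Some genes of the region leaned the other way. MDC1, which encodes a DNA damage checkpoint protein, had peaks on 4, 6 and 3 contigs, and on 4, 3 and 0 at equal list length. TUBB, a beta tubulin gene, was marked on 0, 6 and 3 contigs and at equal list length on 0, 5 and 0, that is in Jurkat replicate 2 only. PBX2, a homeobox gene next to GPSM3, had 0, 6 and 5, so here Jurkat replicate 2 and 6T-CEM went together.

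Among the antigen presentation genes of the MHC, those of class I and class II carried few peaks. None of the 11 class II genes had a peak on a contig or on chromosome 6 in any library, and of 8 class I genes only MICB, a stress ligand of the class I family, had contig peaks, 0, 0 and 3, all in 6T-CEM and none of them left at equal list length. For comparison, 43.2%, 44.1% and 50.4% of 19974 protein-coding genes had a chromosome peak on or within 1 kb. Of the 5 peptide loading genes, 3, 4 and 5 had a contig peak, and 1, 3 and 5 a chromosome peak. TAPBP, which encodes tapasin, led them with 6, 9 and 8 peaks on 3, 4 and 4 contigs and folds up to 6.01, 9.74 and 7.27. Of 29 class III and neighbouring genes, 13, 16 and 16 had a contig peak, and 10, 14 and 16 a chromosome peak, to be read beside the share of all genes just given. This list was compiled with results of these data known.

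BRD2, which encodes a BET protein of the family that GNE-987 inhibits, had peaks on 3 MHC contigs in every library. In Jurkat replicate 2 the promoter peaks had folds of 25.8 on GL000251v2, 24.5 on GL000256v2 and 16.4 on GL000255v2, beside 8.74 for the chromosome peak that matched the first and second of these. In Jurkat replicate 1 the folds were 7.59, 9.96 and 10.5 on the same contigs, with a highest chromosome fold of 8.62, and in 6T-CEM they were 13.3, 7.57 and 14.0, with a chromosome fold of 18.8. The contig copies thus exceeded the chromosome copy in Jurkat replicate 2 and fell below it in 6T-CEM, and in Jurkat replicate 1 they lay on both sides of it. The ratio on GL000251v2 in Jurkat replicate 2, 1.56 on the log2 scale, was the largest of the 357 matched peaks of that library.

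At the other promoters the contig copies stayed closer to the chromosome. At PPP1R10, whose start lies next to that of MRPS18B on the opposite strand, the folds ran from 7.59 to 9.17 over 5 contigs in Jurkat replicate 1, from 3.56 to 10.6 over 6 in Jurkat replicate 2 and from 4.24 to 6.84 over 6 in 6T-CEM. The matching chromosome peaks had 8.62, 3.89 or 6.03, and 5.54. At DDX39B the contig folds ran from 6.27 to 8.91, from 6.36 to 11.01 and from 5.54 to 13.7, beside 8.12, 7.62 and 11.1 on the chromosome. At GPSM3 they ran from 4.69 to 6.80, from 3.89 to 13.1 and from 7.08 to 8.55, beside 6.27, 7.53 and 6.33. At PPP1R10 all contig folds of Jurkat replicate 1 were above those of 6T-CEM, and the chromosome folds were 8.62 and 5.54. At GPSM3 the contig folds of 6T-CEM were higher, but the chromosome folds were close, 6.27 in Jurkat replicate 1 and 6.33 in 6T-CEM. At DDX39B the ranges overlapped. On GL000252v2, 6T-CEM peaks starting at 2806133 and 2828730, with folds of 5.54 and 8.55, were matched to the same DDX39B chromosome peak. Jurkat replicate 2 also had matched peaks at both places. The places lie too far apart to be the same site, so either position may be wrong. The lower end of the 6T-CEM range at DDX39B, 5.54, rests on the former place. The contigs are copies of 1 locus that can share reads, so these ranges do not measure the spread between libraries. The range of Jurkat replicate 2 overlapped both others at all of these genes.

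**Figure D4:**
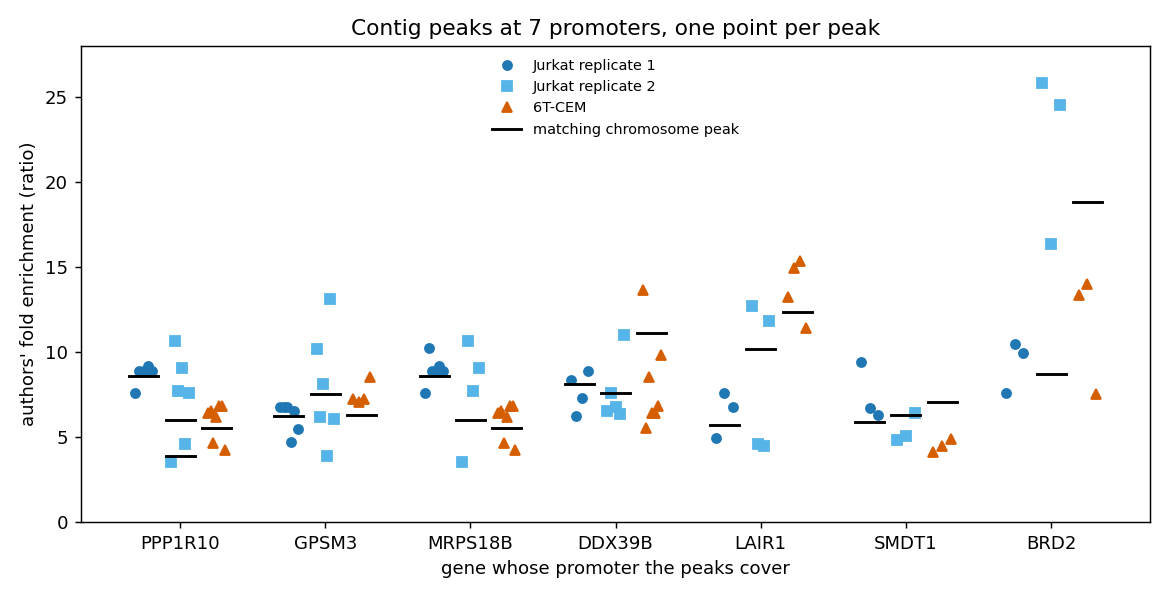
Authors' fold enrichment (vertical axis, linear) of the contig peaks covering 7 promoters (horizontal axis), 1 point per peak, with black bars for the chromosome peaks they match. BRD2 in Jurkat replicate 2 reaches 25.8 above a bar at 8.74, and at LAIR1 all 4 points of 6T-CEM lie between 11.4 and 15.4.

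On chromosome 19, 4 contigs were placed at chr19:54364200-54449650, and LAIR1, described above, was the gene they shared. LAIR1 had 12, 16 and 23 contig peaks, on 4 contigs in every library and also at equal list length, and 3, 4 and 4 peaks on the chromosome. At its promoter the contig folds were 4.95, 7.59 and 6.80 in Jurkat replicate 1, from 4.47 to 12.7 in Jurkat replicate 2 and from 11.4 to 15.4 in 6T-CEM, beside chromosome folds of 5.75, 10.2 and 12.4. 6T-CEM was above Jurkat replicate 1 on every contig where both had a promoter peak, whereas the range of Jurkat replicate 2 overlapped both others. These contigs too are copies of 1 locus, so they do not count as repeats of the comparison. Of the 34 genes listed for the leukocyte receptor complex, 2, 2 and 1 had a contig peak, LAIR1 and, in the Jurkat libraries, LENG8. The list includes killer-cell immunoglobulin-like and leukocyte immunoglobulin-like receptors, but the contigs were placed only around LAIR1, so most of these receptors could not be given a contig peak.

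Chromosome 22 had 3 contigs at chr22:42078997-42337511. Their peaks at SMDT1 and the neighbouring PHETA2, which acts in endosome traffic, lay on all 3 contigs in every library, and at the SMDT1 promoter the folds were 6.29 to 9.44, 4.86 to 6.41 and 4.15 to 4.88, beside 5.92, 6.32 and 7.08 on the chromosome. SMDT1 and PHETA2 lie side by side, so the same peak can count at both. NDUFA6, a subunit of respiratory complex I, was marked on 3, 3 and 1 contigs. At equal list length SMDT1 and PHETA2 had 3, 3 and 0 and NDUFA6 had 3, 1 and 0, so none was marked in 6T-CEM. TCF20, a transcriptional coregulator, had 2, 13 and 19 contig peaks against 8, 32 and 30 on the chromosome. At TCF20 a 6T-CEM peak had a fold of 9.83 on KB663609v1 and 3.004 on the chromosome, the largest ratio of that library, 1.71 on the log2 scale.

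Single-contig loci held long runs of peaks over individual genes. chr16 KI270853v1, placed at chr16:14436657-16312648, had 10, 35 and 20 peaks at ABCC1, a drug efflux transporter, beside 10, 31 and 18 on the chromosome. chr14 KI270847v1, at chr14:93002656-94081657, had 3, 25 and 35 peaks at ITPK1, an inositol phosphate kinase, beside 1, 25 and 34. chr15 KI270905v1, at chr15:28932107-32616357, had 9, 18 and 18 peaks at KLF13, a zinc finger transcription factor of lymphocytes, with folds up to 5.44, 14.7 and 10.7. Jurkat replicate 1 had the fewest peaks at ITPK1 and KLF13, and at ABCC1 too. APBA2 on the same chromosome 15 contig had 0, 10 and 0 contig peaks and 4, 21 and 0 chromosome peaks, so it was marked on the chromosome in both Jurkat libraries and in 6T-CEM in neither copy.

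On chromosome 17, KI270857v1 was placed at chr17:35773313-38826346 and held MLLT6, a chromatin protein gene fused in leukaemias, with 6, 9 and 9 peaks, AATF with 1, 1 and 4, and ACACA, the acetyl-CoA carboxylase of fatty acid synthesis, with 2, 3 and 6. A region at TAF15, an RNA-binding protein gene, had folds of 8.94, 6.37 and 7.55. KI270861v1 held SLC43A2, an amino acid transporter gene, with 5, 14 and 11 peaks. In a shared region of this gene, 6T-CEM had a single peak of 5636 bp with a fold of 22.98. The Jurkat libraries had highest folds of 7.51 and 7.38 in the same region. On the chromosome the highest SLC43A2 folds were 11.9, 7.78 and 14.3. KI270908v1, at chr17:45311787-46554157, held 1, 4 and 5 peaks at KANSL1, a subunit of a histone acetyltransferase complex, and 1, 10 and 10 at PLEKHM1, a lysosomal adaptor. MAPT, which encodes tau, had 0, 1 and 2. GL000258v2, the contig of the inverted form of 17q21.31, had 15, 45 and 17 peaks and could not be placed by spacing, so its peaks carry no gene names here. Jurkat replicate 2 was the fullest on it, also at equal list length with 15, 26 and 9.

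Across the placed contigs, a contig peak and its chromosome match had folds of similar size. The median log2 ratio of contig to chromosome fold was 0.00 over 163 peaks in Jurkat replicate 1, 0.01 over 357 in Jurkat replicate 2 and −0.03 over 449 in 6T-CEM. The ratio was within 2-fold for 98.8%, 94.1% and 95.5% of them. Position, and not fold, had been used to match them. Most folds of a list lie close together, however, so unmatched peaks can be within 2-fold as well. Their share was not computed, and a match also required that both copies were called. The lowest ratio, −1.81 on the log2 scale, was at IGHV3-15 in 6T-CEM, with a fold of 4.39 on the contig and 15.4 on the chromosome. In Jurkat replicate 2 the lowest was −1.63 at ARHGAP11A, 2.13 on the contig and 6.56 on the chromosome, and in Jurkat replicate 1 it was −1.11 at ARHGAP11B, 4.44 and 9.61. ARHGAP11A and ARHGAP11B, both on chr15 KI270905v1, are near-identical copies over part of their length.

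**Figure D5:**
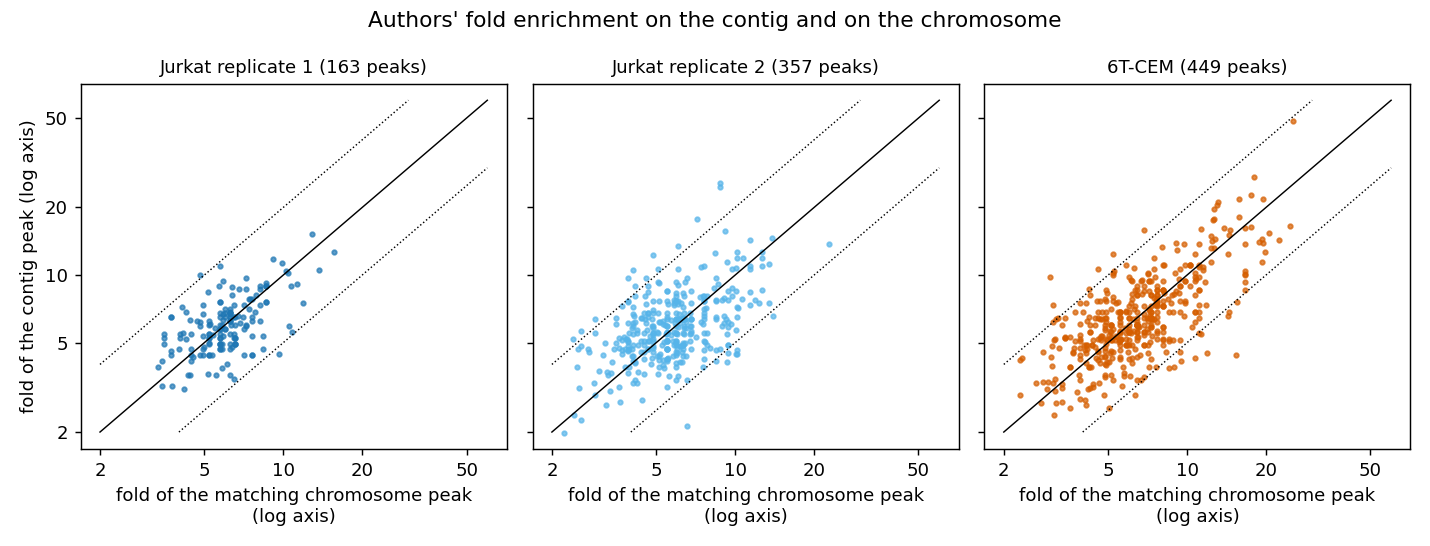
Authors' fold of each matched contig peak (vertical log axis) against the fold of its chromosome peak (horizontal log axis), 1 panel per library, with the line of equality and dotted lines at a 2-fold difference. Most points lie between the dotted lines, and the points above the upper line in Jurkat replicate 2 include both BRD2 peaks at 25.8 and 24.5.

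In all, 245 genes lay at a placed contig peak, 146 of them protein-coding and 99 antigen receptor segments, and 113 had one in every library. Promoter windows of 102 protein-coding genes were covered, 40 of them in every library and 10 on at least 3 contigs in each library. The 807 peaks on contigs without a place carry no gene names. Among them, chr20 KI270870v1 held the widest peaks of 6T-CEM, 6975 bp and 6165 bp, and a Jurkat replicate 2 peak of 5113 bp within the same stretch. On chr22 KI270878v1 Jurkat replicate 2 had a peak of fold 20.1, and on chr1 GL383520v2 and chr12 GL877875v1 Jurkat replicate 1 had peaks of fold 14.7 and 12.8. A region of chr6 GL000253v2 beyond its placed stretch had folds of 11.5, 18.0 and 14.6 in the 3 libraries, and regions of chr16 KI270854v1 and chr8 KI270821v1 had 9.39, 7.29 and 8.03 and 9.70, 7.81 and 13.9.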

How the data were processed

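The H3K27ac peak lists, 2 from Jurkat and 1 from 6T-CEM, were read as deposited, and IgG was left aside. Bowtie2 2.2.5, MACS2 2.2.7 and build hg38 were used, per the submitters' processing notes, and their options are not given in the sources used here. CUT&Tag is the assay in the series text, but sonication is part of the labels' protocols. The authors deposited for each peak a summit offset, a −log10 p-value, a −log10 q-value, a fold (signal as a ratio to background) and a score, which is −log10 q times 10 without its decimals. These values were not recalculated and were compared only as the lists give them. The lists hold no read counts, so depth is unknown and could not be corrected for. An overlap meant 1 base or more in common, and regions were connected groups of overlapping peaks. A contig was placed when at least 7 of its peaks, from 2 or more libraries, matched chromosome peaks at 1 offset, with at least 2 of start, summit and end within 200 bp and 1.5 times the matches of any offset over 1000000 bp away, or when at least 6 matched within 250000 bp of a placed contig. Positions were then chained with blocks of at least 3 matches. These settings were chosen after seeing the data. On simulated lists, 10 of 10 copied contigs were placed correctly and 10 of 10 unrelated ones stayed unplaced. The simulated copies kept a constant offset with small position noise, however, whereas the placed contig GL000256v2 needed 6 blocks. Accuracy on the real contigs was therefore not tested. The members, gene lists and named items were chosen with earlier results of these data known. Named were the 12 contigs with most peaks, the MHC contigs, in each library the 5 contig peaks of highest −log10 q and the 3 widest, and the 15 shared regions of highest minimum −log10 q. The rule also named all contigs with peaks in every library; these came to 68 and are given in part only. Gene starts were not tied to peaks except through the RefSeq promoter table, and contig sequences were not used here. Of the 17q21.31 list, 5, 7 and 6 of 9 genes had a contig peak. The 22q11 list had none, but chromosome 22 contigs were placed only at chr22:42078997-42337511, so its genes could not be given one. The immunoglobulin list (constant regions and neighbours) had none either. The placed stretch of the IGH contig began at chr14:105710628, so part of that list could not be given one. No test or p-value was computed. Clopper-Pearson intervals (95%) cover counting error only. Alternatives were a −log10 q of at least 5, equal list lengths, an overlap of 50% of the shorter peak, a Jurkat peak in either library and each Jurkat library left out, with others added after seeing the data. Tables were computed in Python (3.11.15) using SciPy 1.17.1 for intervals, pandas 2.3.3, NumPy 2.4.6 for arrays and, for plots, matplotlib 3.10.9. Values of 1 marker list and of some class I genes are not reported here.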

Additional observations from a re-analysis of the deposited data

Results flagged for a closer look

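Peaks also lay on sequences that belong to no chromosome position and no alternate contig, the unlocalised and unplaced contigs, which none of the comparisons used. They numbered 16 in Jurkat replicate 1, 29 in Jurkat replicate 2 and 48 in 6T-CEM, and were noted because they are signal outside the contigs and chromosomes compared.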

How the results depend on the processing

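Of 73 values recomputed under an alternative, 43 stayed within the spread allowed and 30 moved. No fold difference changed sign, and counts and shares cannot, but some orders between libraries turned at equal list length. With each list held to its 16697 peaks of highest −log10 q, contig peaks numbered 459 in Jurkat replicate 2 and 465 in 6T-CEM, MHC peaks 114 and 105, chromosome 14 peaks 40 and 104, GL000258v2 peaks 26 and 9, chromosome 19 peaks 25 and 24 and chromosome 22 peaks 25 and 20. In the MHC and on chromosome 19, 6T-CEM was thus no longer above Jurkat replicate 2. There, the fold difference between contig and chromosome peaks was 1.47 in 6T-CEM, the overlap of Jurkat replicate 1 with replicate 2 was 51.5%, the share of Jurkat regions with a 6T-CEM peak was 54.1%, and 6T-CEM had more peaks on 25 contigs and fewer on 29, where it had 62 and 4. At a −log10 q of at least 5, Jurkat replicate 1 kept 294 contig peaks, 78 in the MHC, 30 on chromosome 14 and 15 on chromosome 19, the share of regions in all 3 libraries was 11.8%, and 604 peaks had a chromosome match. Requiring 50% overlap gave 65.2% for the Jurkat libraries. Counting a Jurkat peak in either library gave 49.0% of regions with a 6T-CEM peak, and leaving out each Jurkat library in turn gave 51.6% to 60.7%. Without the MHC contigs the 6T-CEM fold difference was 0.56 and the share in all 3 libraries 12.4%. Overlaps and region shares under the alternatives were recomputed on the contigs only. Whether they differ from those of the chromosomes at these settings was not tested. With peak features matched within 100 bp, 637 peaks had a chromosome match, and 16 contigs were placed, 15 of them among the 24 of the main setting. At a −log10 q of at least 5, 16 contigs were placed, all among the 24. Gene names on the contigs that lost their place rest on the main setting alone. The alternatives without the MHC contigs, with features within 100 bp, and those for the contig counts and chromosome matches were chosen after seeing the data. The causes were not tested beyond the shorter lists these settings make. No paired analysis was possible because 6T-CEM has 1 H3K27ac library and no test was made. Depth is unknown, so a missing peak may lie below the calling threshold.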
